A study of Mus musculus with 12 samples.

Results

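A pair of populations of cancer-associated fibroblasts (CAFs) sorted from the same mouse mammary tumours were compared here: the Ly6C-positive gate called icaf and the NCAM-positive gate called m2cafpos. They supplied 6 of the 12 RNA-seq libraries of the series, 1 per gate from each of 3 mice numbered 27, 30 and 31, and the libraries were paired by mouse number. All mice were 10-week-old, untreated FVB MMTV-PyMT animals, a tumour model in which the mammary tumour virus promoter expresses polyoma virus middle T antigen in the epithelium of the gland. Tumours were dissociated with collagenase I and DNase, and viable PDGFRb-positive cells lacking CD45, CD31 and EPCAM were kept, which removes most leukocytes, endothelial cells and tumour epithelium. Of these, Ly6C-positive cells formed the icaf gate, with no further selection on CD146, PDGFRa or NCAM. The m2cafpos gate held cells that were Ly6C-negative, CD146-negative, PDGFRa-positive and NCAM-positive. The remaining 6 libraries came from the matching NCAM-negative gate (m2cafneg) and the CD146-positive, PDGFRa-negative gate (vcaf). They entered the fit to estimate the spread that remains once gate and mouse are accounted for, taken as equal in all 4 gates. How many cells were sorted is not given in the sources used here, and in such bulk RNA fewer cells of a kind and less RNA per cell cannot be told apart.

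Fibroblasts of healthy tissue include cells of the vessel adventitia and fascia, marked by Pi16 and Dpp4, that secrete chemokines, complement and growth factors and are thought to act as a reserve for other fibroblasts. In tumours, many fibroblasts take on a matrix-producing state marked by Lrrc15 and periostin, with thick collagen fibres, matrix proteases and often smooth muscle actin. In breast tumours, states of the first kind are usually called inflammatory CAFs and states of the second kind myofibroblastic CAFs, and TGF-beta is the best known inducer of the second. Ly6C is a small lipid-anchored surface protein encoded in mice by Ly6c1 and Ly6c2, which lie close together on chromosome 15. NCAM, the neural cell adhesion molecule, is an immunoglobulin-type adhesion protein of neurons, muscle precursors and some mesenchymal cells.

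The libraries held 43898839 to 55363203 reads assigned to genes, so that 1 read stood for 0.0181 to 0.0228 CPM (counts per 1000000 assigned reads). Across genes, log2(CPM + 1) values correlated at r = 0.982 to 0.986 between icaf libraries, at 0.982 to 0.990 between m2cafpos libraries and at 0.919 to 0.949 between the gates. These correlations run across genes, which are not independent replicates. Col1a1 alone took 9.26% to 10.6% of the reads of each m2cafpos library and 3.02% to 3.18% of each icaf library, and the 10 most abundant genes together took 22.2% to 23% and 14.0% to 14.8%. The median difference of all 15456 genes tested was 0.11 on the log2 scale, towards icaf. TMM scaling, which corrects for such shifts, brought this median to 0.0049. Differences below are given on the CPM scale as icaf minus m2cafpos, and small ones should be read against that shift.

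Between the gates, 4387 genes (28.4% of those tested) passed an adjusted p of 0.05, with 2778 (18.0%) higher in icaf and 1609 (10.4%) higher in m2cafpos. These shares are the background for every count of list members below. Changes of at least 1 on the log2 scale were found for 818 genes higher in icaf and 765 higher in m2cafpos, and changes of at least 2 for 284 and 227. The direction was the same in all 3 mice for 2769 of the genes higher in icaf and 1605 of those higher in m2cafpos. The 3 libraries of one gate lay wholly outside those of the other for 2636 and 1495 of them, against 43.0% of all genes tested. That share is the background wherever genes are said below not to overlap. Many genes named below were picked for large differences without overlap or by adjusted p, a choice that already favours separation. The scaling set the balance of small changes, since with TMM factors 1854 genes were higher in icaf and 2071 in m2cafpos (47.2% of calls higher in icaf, against 63.3% without scaling). No called gene passed in the opposite direction under TMM. Without mouse 27, whose removal also takes away its 2 other libraries, 2285 genes passed (1329 higher in icaf and 956 in m2cafpos), and removing the icaf library of mouse 27 alone left 1822 higher in icaf. The plot of differences against mean level shows large changes over a wide range of levels, although adding 1 CPM limits the difference of low genes.

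**Figure D1:**
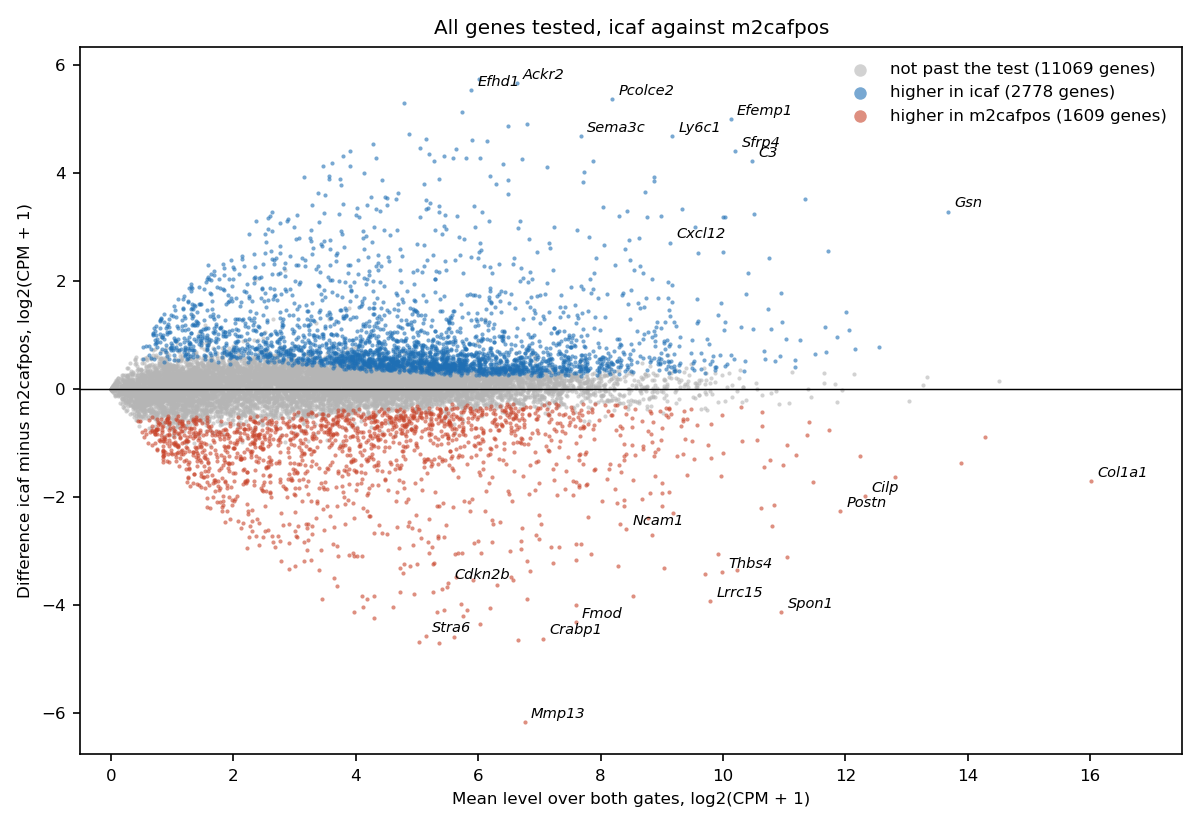
Each point is 1 of the 15456 genes tested, with the mean level over both gates on the x axis and the difference icaf minus m2cafpos on the y axis, both as log2(CPM + 1). Blue points (2778 genes) passed the test as higher in icaf and red points (1609 genes) as higher in m2cafpos. Ackr2, Pcolce2 and Gsn lie at the upper edge, and Mmp13, Spon1 and Col1a1 at the lower.

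The genes of the sort antigens followed the gates. Ly6c1 (chr15:75044018-75048830 in GRCm38) was read at 1004, 1266 and 1049 CPM in the icaf libraries of mice 27, 30 and 31 and at 34.6, 62.9 and 33.8 CPM in m2cafpos. Ly6c2 was read at 35.9, 41.6 and 39.5 CPM against 1.99, 2.34 and 1.03 CPM. Both genes stood far apart between the gates in each mouse, by 25.3-fold for Ly6c1 and 21.9-fold for Ly6c2 in mean CPM. The 2 genes are close copies, so reads that fit either could have been placed in one or the other. Of the other measured Ly6 family genes, Ly6i (8.35 ± 0.687 against 0.887 ± 0.311 CPM, SD, n = 3) and Ly6a, which encodes the progenitor antigen Sca-1 (1846 ± 262 against 208 ± 64.4 CPM), were also higher in icaf, which made 4 of 15 with Ly6c1 and Ly6c2, and Cd59a was the 1 member higher in m2cafpos. The calls of Ly6c1 and Ly6c2 follow from the sort. With them, 33.3% of the family passed in either direction, against 28.4% of all genes tested. Here and below, genes added to complete a count of 5 or fewer were named after their values were seen.

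The 250 bases before the RefSeq start sites of 3 genes are shown because Ly6c1 and Ly6c2 define the icaf gate and Mmp13 had the most negative difference of all named genes. They were taken from the RefSeq table for GRCm38.p6 and are written 5′ to 3′ on the strand of the gene, with capitals for 2 searched motifs, the AP-1 element (TGANTCA) and the Runx element (TGTGGT), both looked for on both strands.
Ly6c1 (chr15:75048838-75049087, minus strand): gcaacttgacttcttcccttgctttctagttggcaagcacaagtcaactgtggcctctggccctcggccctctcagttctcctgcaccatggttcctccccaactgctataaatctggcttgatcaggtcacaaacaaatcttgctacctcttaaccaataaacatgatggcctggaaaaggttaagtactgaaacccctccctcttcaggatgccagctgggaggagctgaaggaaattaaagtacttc
Ly6c2 (chr15:75111972-75112221, minus strand): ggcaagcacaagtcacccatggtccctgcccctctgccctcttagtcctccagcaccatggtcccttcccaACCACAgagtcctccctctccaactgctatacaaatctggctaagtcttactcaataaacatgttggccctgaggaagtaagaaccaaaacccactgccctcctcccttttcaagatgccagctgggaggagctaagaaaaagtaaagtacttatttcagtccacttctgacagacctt
Mmp13 (chr9:7272264-7272513, plus strand): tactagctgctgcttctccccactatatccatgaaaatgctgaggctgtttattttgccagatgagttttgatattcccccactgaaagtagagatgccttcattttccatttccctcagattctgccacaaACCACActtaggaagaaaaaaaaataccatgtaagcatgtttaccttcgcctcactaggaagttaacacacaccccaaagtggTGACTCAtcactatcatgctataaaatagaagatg
The Ly6c1 and Ly6c2 windows aligned with 170 identical bases over 284 positions (59.9%). Mmp13 held an AP-1 element starting 35 bases before the start site and a Runx element 118 bases before it, and the motifs did not overlap. Ly6c2 held a Runx element 179 bases before its start, and neither motif was found in the Ly6c1 window. Over 27025 promoters cut to the same length, 6.9% held the AP-1 element and 14.2% the Runx element. A match describes the letters only.

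Ncam1, the gene of the second antigen, was read at 105, 102 and 82.6 CPM in icaf and at 589, 564 and 604 CPM in m2cafpos (log2 difference -2.60, SE 0.13, adjusted p = 1.12e-07). The icaf gate was not selected on NCAM, and its level lay above that of the NCAM-negative gate (31.1 CPM). Pdgfrb, whose protein was required in both gates, was nonetheless 4.46-fold higher in m2cafpos, at 898, 714 and 904 CPM against 168, 159 and 237 CPM. Pdgfra, selected on in m2cafpos only, reached 403 ± 44.8 CPM in icaf and 500 ± 3.32 CPM in m2cafpos and did not pass the test (adjusted p = 0.151). Of the genes of antigens used for exclusion, Epcam was read at 44.6, 54.1 and 115 CPM in icaf and at 76.6, 24.5 and 120 CPM in m2cafpos, where the gates overlap. Others were lower, with Mcam (CD146) at 3.44 ± 2.66 and 4.16 ± 1.83 CPM and Ptprc (CD45) at 0.720 ± 0.154 and 0.941 ± 0.405 CPM. NCAM carries polysialic acid in some cells, and St8sia2, an enzyme that adds it, was higher in m2cafpos at 15.8, 5.01 and 14.8 CPM against 2.15, 0.924 and 3.37 CPM. Of 5 genes of NCAM modification and signalling it was 1 of 2 higher in m2cafpos, with Fgfr2 (1 passed without either library of mouse 27), and the 1 higher in icaf, Fgfr1, lost its call under every library left out.

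**Figure D2:**
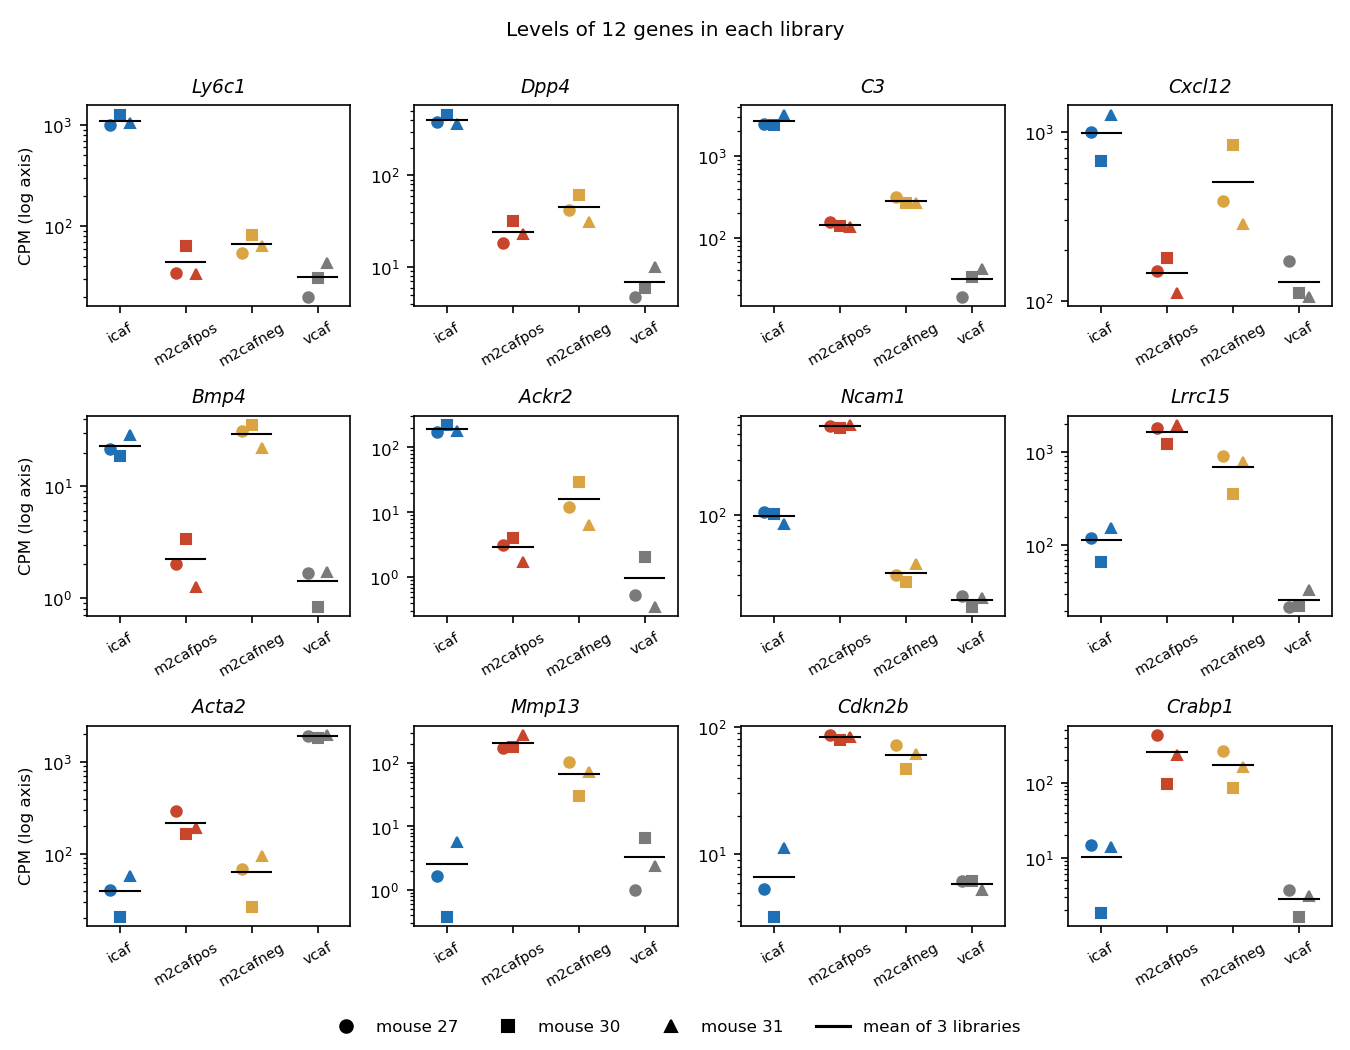
Levels of 12 genes in each of the 12 libraries, in CPM on log axes that differ between panels, with mouse 27 as circles, 30 as squares and 31 as triangles and the mean of each gate as a line. The first 6 panels show genes higher in icaf than in m2cafpos, and the last 6 genes higher in m2cafpos. In each panel the 3 icaf and 3 m2cafpos libraries do not overlap.

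Markers of adventitial fibroblasts were higher in icaf almost throughout: of 30 members, all tested, 29 were higher in icaf and none in m2cafpos, with a median log2 difference of 3.28 (18.0% higher in icaf, 10.4% higher in m2cafpos and a median of 0.11 over all genes). The exception was Mfap5, a microfibril protein, at 4966 ± 516 and 4083 ± 292 CPM. Dpp4, a surface peptidase used to sort these cells, was read at 381, 459 and 361 CPM in icaf against 18.2, 31.5 and 22.8 CPM in m2cafpos. Pi16, the other eponymous marker, differed less, at 1876, 2928 and 2411 CPM against 856, 1353 and 1155 CPM (2.15-fold, adjusted p = 0.00724), and it fell short of the threshold without mouse 27. Efhd1, a calcium-binding mitochondrial protein, was 81.7-fold higher in icaf (114 ± 46.8 against 1.4 ± 0.493 CPM). Pcolce2, which enhances the cleavage of procollagen, was 41.8-fold higher (531, 610 and 563 against 13.4, 19.5 and 7.86 CPM). Gfpt2, which makes hexosamine sugars, was 5.85-fold higher with an SE of 0.12 on a log2 difference of 2.54. Dpp4 and Mfap5 were named after their values were seen. The list itself, like the others here, was chosen with earlier results of these data known, so its count is not independent support.

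The adventitial programme also differed between animals, in the same way in both gates. Mouse 30 gave the highest of the 3 icaf libraries for 24 of the 29 members higher in icaf, and the highest of the 3 m2cafpos libraries for 26 of them. Among all 2778 genes higher in icaf it was the highest icaf library for 42.2% and the highest m2cafpos library for 48.8%. Of the 18 tumour myofibroblast members higher in m2cafpos, mouse 30 was lowest among the m2cafpos libraries for 13 (72.2%, against 49.9% of all 1609 genes higher in m2cafpos). It was lowest among the icaf libraries for 11 (61.1%), near the 54.8% of all such genes. Members of a list share their libraries, and these counts describe 3 animals.

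Parenchymal fibroblast markers, those of the Col15a1-positive cells that lie between tissue structures, were split: 6 of 15 were higher in icaf and 5 in m2cafpos (median 0.26), or 3 in m2cafpos without mouse 27. Col15a1 itself, a basement membrane collagen, was 3.32-fold higher in m2cafpos, and Mgp, an inhibitor of calcification, was read at 2070, 2294 and 2165 CPM there against 170, 151 and 373 CPM in icaf. Cxcl12, the ligand of CXCR4 and a classic product of inflammatory CAFs, went the other way at 993, 674 and 1262 CPM in icaf against 149, 178 and 112 CPM. The others higher in m2cafpos were Smoc2, Hsd11b1 and Fmo2. The lowest icaf library of Cxcl12 stood well above the highest m2cafpos library, although the icaf values spread widely.

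Genes of the Lrrc15-type tumour myofibroblast were mostly higher in m2cafpos: 18 of 28 tested members, with 4 higher in icaf and a median of -1.90. Lrrc15 (chr16:30269302-30283256), a leucine-rich repeat membrane protein, was read at 1798, 1216 and 1969 CPM in m2cafpos and at 121, 65.6 and 153 CPM in icaf (14.7-fold). Spon1, a secreted matrix protein, was 17.2-fold higher in m2cafpos (3744 ± 657 against 217 ± 60.7 CPM), and Postn (periostin) was 4.71-fold higher (6348, 5682 and 7096 against 1557, 959 and 1549 CPM). The syndecan Sdc1 and the mesenchymal cadherin Cdh11 were 5.22-fold and 6.67-fold higher. All 6 m2cafpos and icaf libraries separated for each of these genes, as for 43.0% of all genes tested. The 4 members higher in icaf, named after their values were seen, were Fndc1 (674 ± 117 against 154 ± 37.2 CPM), Fap (195 ± 29.1 against 130 ± 8.79), Itga11 (257 ± 16.6 against 172 ± 11.5) and Comp (4.10 ± 2.70 against 2.07 ± 1.07). Fap, a surface protease, is itself a common CAF marker. The count of 4 fell to 1 with TMM scaling and to 1 or 2 without any one library except the m2cafpos library of mouse 31.

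Contractile genes were divided. Of 30 tested, 13 were higher in m2cafpos and 4 in icaf (median -0.31), and the 4 became 2 with TMM scaling and without any one library except the m2cafpos library of mouse 27. Acta2, smooth muscle actin, was read at 297, 165 and 192 CPM in m2cafpos and at 40.5, 20.7 and 57.7 CPM in icaf, a 5.5-fold difference (adjusted p = 3.16e-05), while the vcaf gate stood at 1921 CPM. The actin-binding genes Tpm2, Cnn2 and Cnn3 were 2.80-fold, 2.31-fold and 1.77-fold higher in m2cafpos. The 4 in icaf were Zyx, Tagln2, Pdlim5 and Pdlim7. Zyx (zyxin), a focal adhesion protein, was read there at 803, 902 and 742 CPM, against 357, 245 and 287 CPM in m2cafpos. Tagln, which is among the 13, shares 67.9% of its exon length with another gene, so its count is uncertain.

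**Figure D3:**
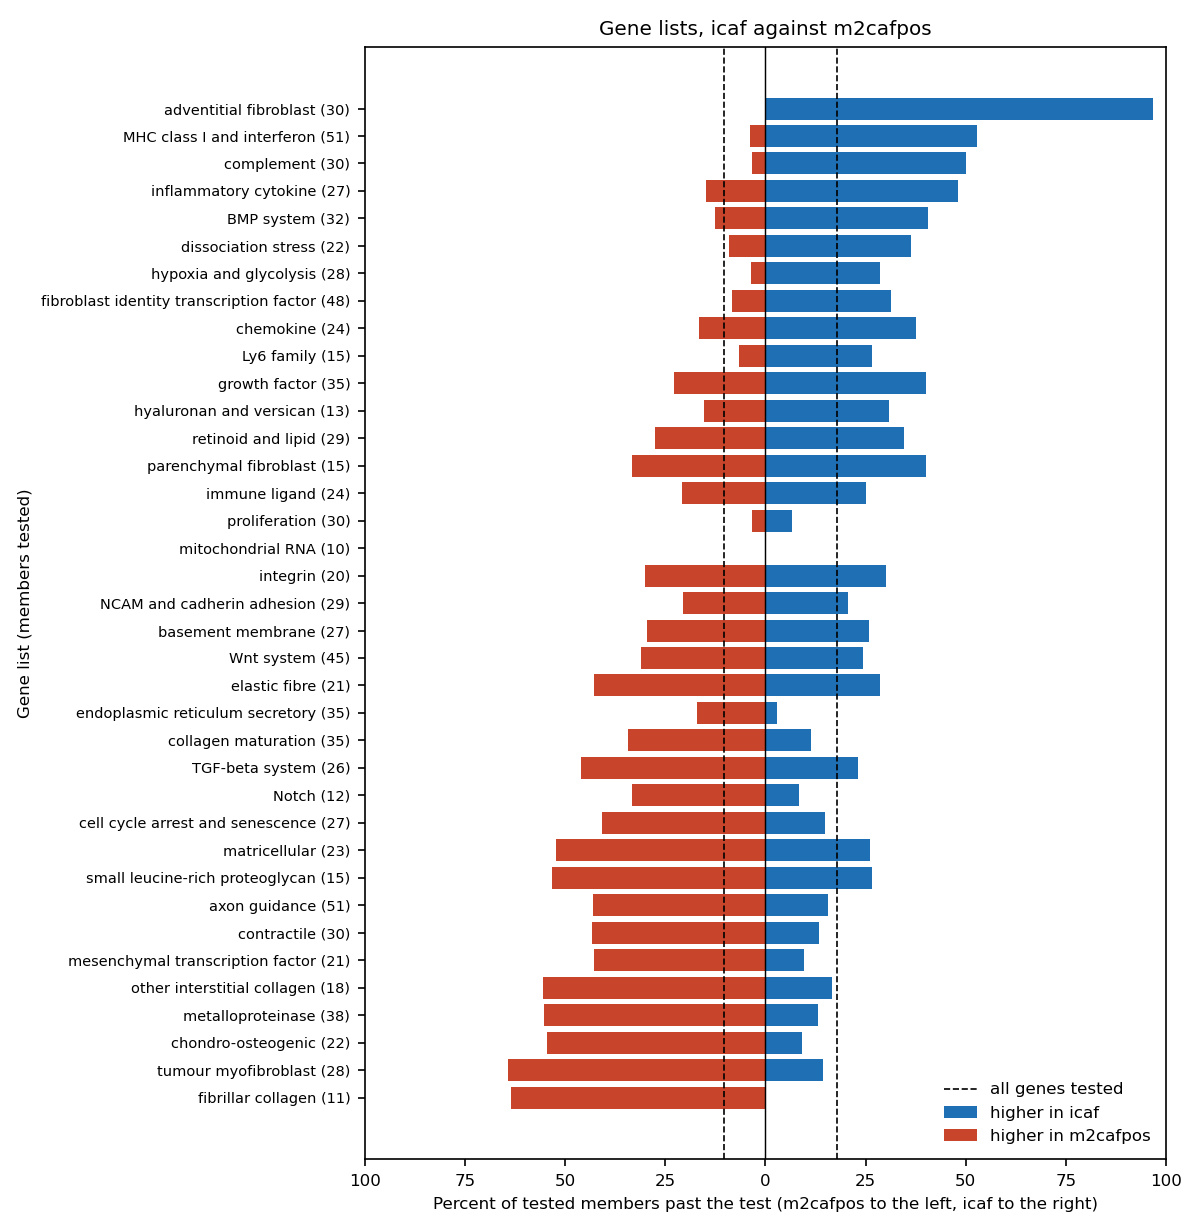
Percent of the tested members of each gene list with at least 10 tested members that passed the test as higher in icaf (blue, right) or in m2cafpos (red, left), with the number tested in brackets and dashed lines at the share of all genes tested (18.0% and 10.4%). The adventitial list extends farthest to the right, and the tumour myofibroblast and fibrillar collagen lists farthest to the left. The bars are on the CPM scale, where TMM scaling shifts small differences towards m2cafpos.

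Fibrillar collagens, the rod-forming chains of connective tissue, were higher in m2cafpos for 7 of 11 genes and in icaf for none (median -1.04). Col1a1 was read at 106280, 92604 and 105519 CPM in m2cafpos and at 30847, 31785 and 30198 CPM in icaf, a 3.28-fold difference (adjusted p = 0.000221) with no overlap, and its partner chain Col1a2 was 2.60-fold higher. Col11a1, a minor chain that nucleates fibrils, was 15.4-fold higher in m2cafpos, at 121, 160 and 124 CPM against 7.27, 2.71 and 16.4 CPM. Its log2 difference of -4.06 became -3.37 without mouse 30 and -4.66 without mouse 31. Col3a1 did not follow, with 24550 ± 1745 CPM in icaf and 22136 ± 2628 CPM in m2cafpos (adjusted p = 0.609). Col1a1 did not pass in a fit of the 6 libraries without the mouse block. The ratio of Col1a1 to Col3a1 reads thus differed between gates although both genes were abundant in each.

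Among the 18 other interstitial collagens tested, 10 were higher in m2cafpos and 3 in icaf (Col6a6, Col14a1 and Col28a1). Col7a1, the anchoring fibril collagen, was 32.9-fold higher in m2cafpos (113, 54.5 and 111 against 2.11, 2.06 and 4.28 CPM). Col8a2, a short-chain collagen, was 13.3-fold higher, and Col26a1 was read at 26.0, 10.5 and 21.9 CPM against less than 1 CPM in each icaf library. Col6a1 was 2.38-fold higher in m2cafpos, whereas its relative Col6a6 was 4.61-fold higher in icaf (28.3 ± 4.44 against 6.14 ± 0.903 CPM). Of 4 membrane-spanning collagens, 3 were higher in m2cafpos, namely Col23a1, Col25a1 and Col13a1 (8.69 ± 2.24 against 0.436 ± 0.191 CPM).

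Enzymes and chaperones of collagen maturation moved less. Of 35 tested, 12 were higher in m2cafpos and 4 in icaf (median -0.10). Without mouse 27 the 12 became 6, and without any one library of mouse 27 or 30 the 4, which were Pcolce2, Loxl4, Tll1 and Loxl2, became 2. The cross-linking oxidases Lox and Loxl3 were 2.18-fold and 2.37-fold higher in m2cafpos, and the lysyl hydroxylase Plod1 1.70-fold. Serpinh1, the collagen chaperone HSP47, was abundant and close in both gates at 7783 ± 675 and 9088 ± 564 CPM (adjusted p = 0.323), although DESeq2 called it higher in m2cafpos. Genes of the secretory pathway of the endoplasmic reticulum were largely below the threshold: 6 of 35 were higher in m2cafpos and 1 in icaf, and the 6 became 10 with TMM scaling and 3 without mouse 27 or mouse 30. The 1 was Sdf2l1. The 6 included Creb3l1 and Creb3l2, membrane-bound transcription factors of secretory cells, which were 1.47-fold and 1.54-fold higher in m2cafpos, Creb3l1 falling short of the threshold without mouse 27.

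The small proteoglycans that coat collagen fibrils exchanged members between the gates. Of 15 tested, 8 were higher in m2cafpos and 4 in icaf, and the 8 became 4 without the icaf library of mouse 27 or the m2cafpos library of mouse 31 and 5 without the icaf library of mouse 30. Fibromodulin (Fmod) was read at 282, 561 and 258 CPM in m2cafpos against 19.2, 12.3 and 18.3 CPM in icaf, and biglycan (Bgn) was 3.05-fold higher in m2cafpos. Decorin (Dcn), its close relative, was 2.67-fold higher in icaf (5572, 6447 and 6071 against 2077, 2509 and 2180 CPM), with osteoglycin (Ogn) and Prelp 6.11-fold and 3.10-fold higher there and Tsku the last of the 4. Each of these genes separated the 2 sets of 3 libraries, as did 43.0% of all genes tested.

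Elastic fibre and matricellular genes were likewise divided. Elastic fibre genes were higher in m2cafpos for 9 of 21 and in icaf for 6. Efemp1 (fibulin-3) was the most different, at 2159, 2260 and 2060 CPM in icaf against 69.3, 106 and 40.7 CPM in m2cafpos, and Emilin2 was 10.6-fold higher in icaf. Mfap4 and Ltbp2 were 4.45-fold and 9.17-fold higher in m2cafpos, and the log2 difference of Ltbp2 (-3.19) became -2.56 without mouse 30. Of 23 matricellular genes, secreted proteins that modulate adhesion rather than build fibres, 12 were higher in m2cafpos and 6 in icaf (median -0.89). Thrombospondin-4 (Thbs4) was read at 1711, 1386 and 2430 CPM in m2cafpos against 142, 165 and 209 CPM in icaf, Ccn4 (WISP1) was 8.65-fold higher and the tenascin Tnn 14.6-fold higher. Tnxb, the tenascin of loose connective tissue, was 8.68-fold higher in icaf.

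Basement membrane genes passed the test in both directions, 8 of 27 higher in m2cafpos (5 without mouse 27) and 7 in icaf (median -0.01). The laminin chains Lama1 and Lamc3 were low in icaf and higher in m2cafpos, at 42.5, 23.1 and 43.6 against 0.855, 0.314 and 1.82 CPM and at 38.1, 27.1 and 33.5 against 1.42, 0.432 and 2.32 CPM. Frem1, a protein of the dermal basement membrane zone, was 14.6-fold higher in m2cafpos. Of 20 integrin genes, 6 were higher in each gate, against 18.0% (icaf) and 10.4% (m2cafpos) of all genes tested. Itgb5 was 2.84-fold higher in m2cafpos, and Itgb3 was 2.95-fold and the collagen receptor subunit Itga2 28.8-fold higher in icaf. Itgb7 was 62.3-fold higher in icaf but uneven (18.6 ± 15.1 against 0.299 ± 0.0222 CPM). Its log2 difference of 3.62 became 3.01 without the icaf library of mouse 30.

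Metalloproteinases and their relatives were higher in m2cafpos for 21 of 38 genes and in icaf for 5 (median -0.72), and without mouse 27 the 21 became 13. The 5 were Adamts5, Adamts19, Adamts1 and the inhibitors Timp2 and Reck. Mmp13, a collagenase that cuts fibrillar collagen, was read at 173, 180 and 283 CPM in m2cafpos and at 1.65, 0.373 and 5.70 CPM in icaf. Its log2 difference of -6.16 (SE 0.55, adjusted p = 5.75e-06) was the farthest from 0 among the named genes. Mmp9 was read at 14.4 ± 2.26 CPM in m2cafpos and 1.93 ± 1.91 CPM in icaf, with a log2 difference of -2.57 that became -3.20 without the icaf library of mouse 27. It is also a neutrophil marker, and of 6 neutrophil markers tested it was 1 of 3 higher in m2cafpos, with Mmp8 (2.43 ± 0.784 against 0.222 ± 0.185 CPM) and Mpo (1.80 ± 0.221 against 0.643 ± 0.187 CPM). The part of neutrophils in its difference was not tested. The Adamts genes went both ways, with Adamts4 and Adamts7 3.34-fold and 5.60-fold higher in m2cafpos and Adamts5 4.90-fold higher in icaf (537, 512 and 448 against 107, 115 and 83.8 CPM). Hyaluronan synthase Has1 was 7.51-fold higher in icaf, at 1788, 1271 and 900 CPM against 199, 250 and 79.1 CPM, and Has2 was 3.01-fold higher at low levels. In all, 4 of 13 hyaluronan genes were higher in icaf, with Cd44 and Tnfaip6, and 2 in m2cafpos, namely Cemip2 and Hapln3. The hyaluronan link protein Hapln3 was read at 15.1, 6.21 and 10.2 CPM in m2cafpos against 0.304, 0.373 and 1.5 CPM.

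Chemokines and the scavenger receptors that take them up were prominent in icaf: 9 of 24 tested genes were higher there and 4 in m2cafpos (median 0.30). The largest difference belonged to Ackr2 (chr9:121898355-121911074), an atypical receptor that internalises inflammatory CC chemokines, at 175, 225 and 180 CPM in icaf against 3.16, 3.99 and 1.71 CPM. Ackr3, the scavenger of CXCL12, was read at 838, 1081 and 699 CPM against 58.1, 82.2 and 42.9 CPM, so that Cxcl12 and its scavenger were both higher in the same gate. The neutrophil attractant Cxcl1 was 3.90-fold higher in icaf, though its mean was 410 CPM in vcaf against 323 CPM in icaf. The 4 higher in m2cafpos were Ccl17, Cxcl14, Cxcr4 and fractalkine (Cx3cl1), a membrane-tethered chemokine, at 112, 146 and 123 CPM against 19.8, 15.1 and 33.5 CPM, and the 4 became 2 without the mouse block or any one library of mouse 27 or 30. Ccl2, the monocyte attractant, did not pass the test, at 947, 253 and 302 CPM in icaf and 341, 416 and 187 CPM in m2cafpos, where the groups overlap and the highest icaf library is that of mouse 27.

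Inflammatory cytokines and their mediators were higher in icaf for 13 of 27 genes and in m2cafpos for 4 (median 0.80). Il6 was read at 62.5, 41.7 and 36.8 CPM in icaf and at 17.2, 25.9 and 15.9 CPM in m2cafpos, a 2.40-fold difference (adjusted p = 0.000162) with no overlap. The vcaf gate, at 106 CPM, was higher than both. Ptgs1, the constitutive cyclooxygenase, was 6.27-fold higher in icaf, and the cytokine genes Il18 and Tslp were 7.37-fold and 5.38-fold higher at modest levels. The decoy receptor for interleukin 1, Il1r2, was 28.6-fold higher (87.9, 164 and 153 against 4.82, 6.62 and 2.71 CPM). The 4 genes higher in m2cafpos, named after their values were seen, were 3 other members of the interleukin 6 family, Lif (8.10 ± 0.302 against 23.9 ± 7.40 CPM, icaf first), Il11 (2.96 ± 1.38 against 5.90 ± 1.33) and Clcf1 (2.09 ± 0.580 against 6.20 ± 0.207), and Il34, a ligand of the macrophage receptor CSF1R (76.6 ± 8.29 against 219 ± 44.9). Members of one cytokine family thus passed the test in opposite directions.

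Complement genes were higher in icaf for 15 of 30 and in m2cafpos for 1 (median 0.78). C3, the hub of the cascade, was read at 2493, 2414 and 3215 CPM in icaf against 155, 141 and 134 CPM in m2cafpos, an 18.9-fold difference. C4b was 9.44-fold higher, and its near-identical copy C4a 8.10-fold, though reads may be divided between them. Cfb, the protease of the alternative pathway, was 7.72-fold higher but shares 79.5% of its exon length with another gene. Regulators that protect cells from complement went both ways: Cd55 was read at 424, 473 and 278 CPM in icaf against 20.6, 34.3 and 24.8 CPM, while Cd59a was the 1 gene higher in m2cafpos, at 189, 227 and 206 CPM against 9.76, 10.0 and 22 CPM. Vitronectin (Vtn) was 31.3-fold higher in icaf, at 62.5 CPM, but its mean in vcaf was higher still at 365 CPM.

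Interferon-response genes and antigen presentation were modestly higher in icaf than in m2cafpos. Of 34 interferon-response genes tested 20 were higher in icaf and none in m2cafpos (median 0.69), and of 17 class I presentation genes 7 were higher in icaf and 2 in m2cafpos (median 0.31). Both lists together gave 27 of 51 in icaf, which became 20 with TMM scaling and 21 without the icaf library of mouse 30, and the 2 in m2cafpos, H2-T23 and Tapbp, became 0 without either library of mouse 27 and 1 without the icaf library of mouse 31 or the m2cafpos library of mouse 30. Usp18, a feedback inhibitor of interferon signalling, was read at 38.1, 115 and 48.6 CPM in icaf against 10.1, 13.1 and 14.9 CPM. Zbp1 and Ifitm3 were 3.80-fold and 2.36-fold higher. H2-D1, a classical class I heavy chain, was 1.61-fold higher (4061 ± 151 against 2518 ± 92.0 CPM), although class I genes resemble each other and share reads. Its mean was 4176 CPM in m2cafneg and 3833 CPM in vcaf, so m2cafpos was the low gate for H2-D1. Usp18 differed from this, with means of 12.7 CPM in m2cafneg and 12.4 CPM in vcaf, near m2cafpos. Among ligands for NK and T cells, 6 of 24 were higher in icaf and 5 in m2cafpos, against 18.0% and 10.4% of all genes tested. The 5 became 3 without the icaf library of mouse 27 or 30 or the m2cafpos library of mouse 27, and 2 without the mouse block or without mouse 27. The 5 were Nectin2, Nectin4, Tnfsf18, Cd276 and Lgals1. Nt5e (CD73), which makes adenosine, was 26.1-fold higher in icaf (105, 79.2 and 61.5 against 3.67, 2.32 and 3.44 CPM). The co-stimulatory ligand Icosl was 8.29-fold higher in icaf, and Nectin2, a ligand of DNAM-1 and TIGIT family receptors, 2.17-fold higher in m2cafpos. Cd274 (PD-L1) was low and did not pass the test, at 3.20 ± 0.481 and 2.67 ± 0.645 CPM.

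TGF-beta and BMP ligands were distributed to opposite gates. Of 5 TGF-beta and activin ligands tested, 4 were higher in m2cafpos and 1 in icaf, whereas of 10 BMP-type ligands 6 were higher in icaf and none in m2cafpos. Tgfb3 was read at 385, 434 and 429 CPM in m2cafpos against 88.5, 79.3 and 134 CPM in icaf, and Tgfb1 at 7.06, 5.28 and 5.49 CPM against 1.20, 1.47 and 1.52 CPM. Inhba (activin A) was 2.20-fold higher in m2cafpos with overlapping libraries, and it did not pass without mouse 31 or without the mouse block. Tgfb2 was the ligand higher in icaf, at 20.2, 38.4 and 22.9 CPM against 13.6, 8.10 and 12.8 CPM, and it fell below the threshold without either library of mouse 30 or without mouse 27. Its mean in vcaf was 63.0 CPM. Receptors moved little, with the co-receptor Tgfbr3 2.20-fold and Tgfbr2 1.60-fold higher in icaf and Tgfbr1 1.5-fold higher in m2cafpos. Acvr2a was the third receptor higher in icaf, and it lost its call without any one library. Of 15 targets and feedback genes, 7 were higher in m2cafpos and 2, Fst and Fstl1, in icaf. Pmepa1, an inhibitor induced by TGF-beta, was 4.13-fold higher in m2cafpos (459, 579 and 578 against 124, 107 and 160 CPM) and Fstl3 3.67-fold.

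BMP ligands higher in icaf included Bmp4 at 21.5, 18.5 and 28.7 CPM against 2.02, 3.36 and 1.25 CPM, Bmp3 at 69.8, 74.6 and 45.5 CPM against 3.94, 2.47 and 4.44 CPM, and Bmp6, which was 9.53-fold higher. Gdf10, also called BMP3B, was 9.29-fold higher. Of 11 extracellular antagonists 6 were also higher in icaf. Chordin-like 1 (Chrdl1) was 25.6-fold higher in icaf, and Bmper and follistatin (Fst) were 2.95-fold and 2.62-fold higher, with Bmper short of the threshold without mouse 27. Targets did not rise with the ligands: none of 6 was higher in icaf, and 2 were higher in m2cafpos. These were Msx1 (141, 94.8 and 140 against 20, 19.0 and 28.5 CPM) and Id1 (9.32 ± 1.28 against 4.86 ± 1.66 CPM), and Id1 lost its call when either library of mouse 27 was removed. The whole BMP list had 4 members higher in m2cafpos, including the receptor Bmpr1b, which became 2 without either library of mouse 27 and 8 with DESeq2.

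**Figure D4:**
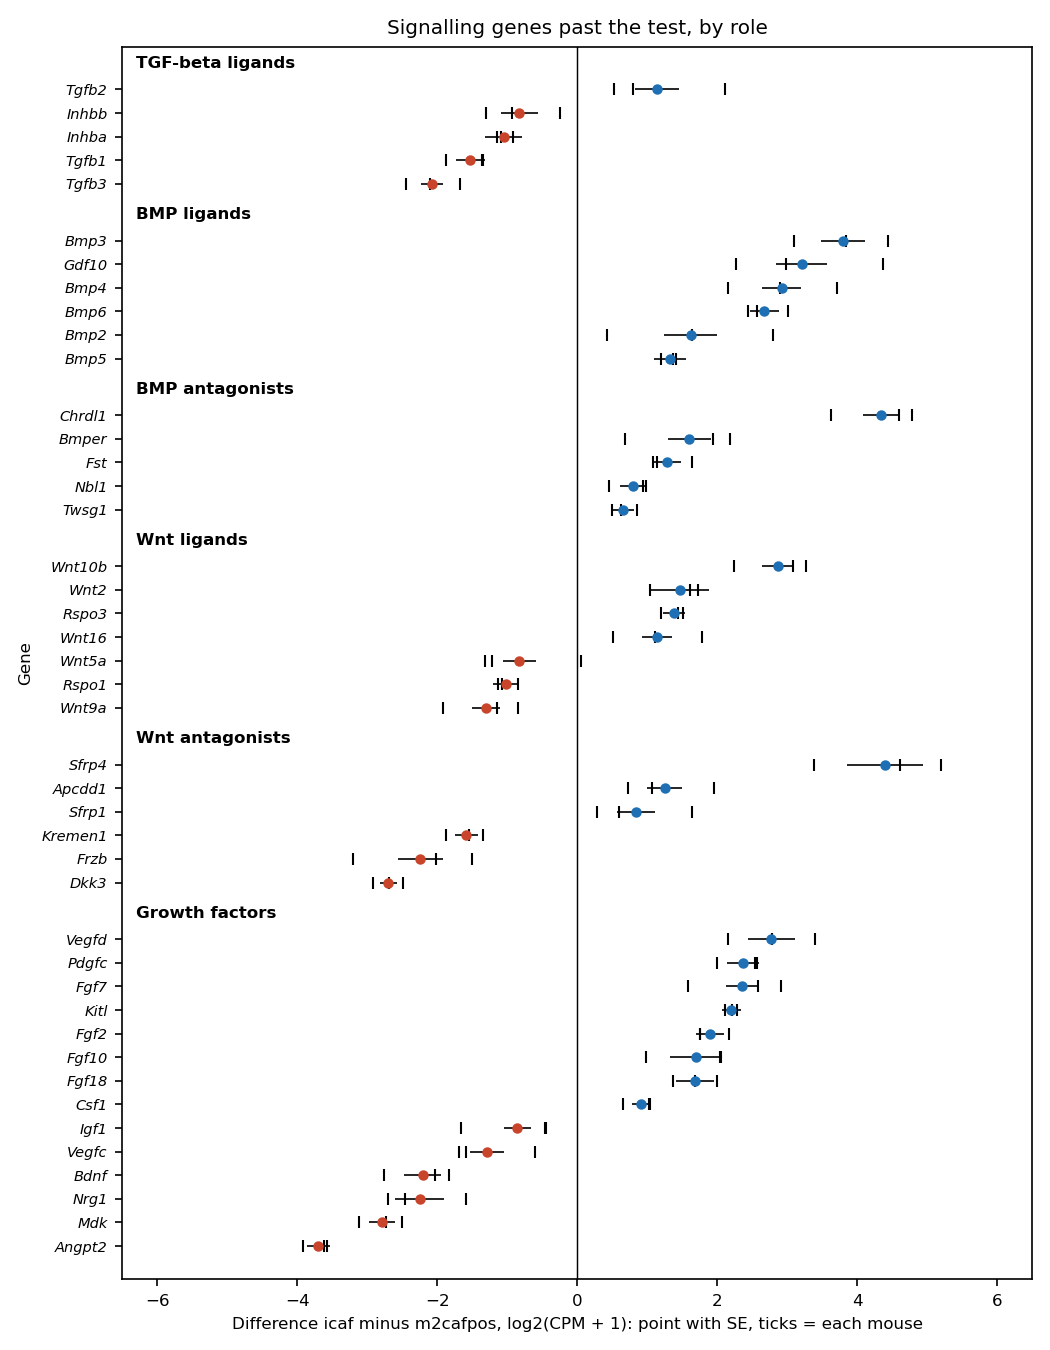
Selected ligands, antagonists and growth factors that passed the test, grouped by role, with the difference icaf minus m2cafpos in log2(CPM + 1) as a point, its SE as a bar and the 3 mice as ticks. All 6 BMP ligands shown lie on the icaf side and 4 of the 5 TGF-beta family ligands on the m2cafpos side. For Wnt5a, 1 mouse lies on the icaf side of 0.

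Wnt genes were mixed, with 11 of 45 higher in icaf and 14 in m2cafpos (median -0.23), against 18.0% and 10.4% of all genes tested. The 11 became 7 without the icaf library of mouse 27 and 6 with edgeR. Wnt5a, at 49.8, 25.2 and 40.8 CPM in m2cafpos against 19.5, 26.3 and 16.9 CPM in icaf, overlapped between the gates and lost its call without any one library of mouse 27 or 31. The ligand Wnt10b was read at 7.50, 11 and 3.94 CPM in icaf and at no more than 0.241 CPM in any m2cafpos library, where it had no read in mouse 27. Wnt9a was 2.37-fold higher in m2cafpos. Among receptors, Fzd1 and Lgr5 were 4.29-fold and 11.7-fold higher in m2cafpos and Fzd4 5.40-fold higher in icaf. The mean of Fzd4 was higher in vcaf (107 CPM) than in icaf (58.5 CPM). Among secreted antagonists, Sfrp4 was read at 2345, 2130 and 2216 CPM in icaf against 94.7, 203 and 59.4 CPM, and Dkk3 at 729, 802 and 841 CPM in m2cafpos against 112, 105 and 149 CPM. The 2 antagonists thus marked opposite gates, with no overlap for either, as for 43.0% of all genes tested. Nkd2, a feedback inhibitor induced by Wnt signalling, was 9.38-fold higher in m2cafpos (639, 444 and 607 against 68.0, 33.9 and 78.3 CPM).

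Growth factors were higher in icaf for 14 of 35 and in m2cafpos for 8, with 9 higher in icaf without mouse 27. Stem cell factor (Kitl) was read at 83.4, 54.9 and 77.5 CPM in icaf against 17.2, 11.9 and 15.1 CPM, and its mean in vcaf was 117 CPM. The epithelial mitogen Fgf7 (72.0 ± 4.49 against 14.1 ± 6.80 CPM) and the lymphangiogenic factor Vegfd (92.8 ± 16.7 against 14.0 ± 8.64 CPM), named after their values were seen, were also higher in icaf. In m2cafpos, angiopoietin-2 (Angpt2) was read at 65.9, 71.4 and 96.9 CPM against 3.44, 4.93 and 7.27 CPM, and midkine (Mdk) was 6.88-fold higher. The mean of Angpt2 was higher in m2cafneg (109 CPM) and vcaf (245 CPM) than in m2cafpos (78.1 CPM). Each of these genes separated the gates in all 6 libraries, as did 43.0% of all genes tested. IGF binding proteins were mainly higher in m2cafpos, 4 of 8 genes (with Igfbp7) and 1 higher in icaf. Igfbp2 was 22.8-fold, Igfbp3 4.02-fold and Igfbp4 2.39-fold higher in m2cafpos, and Igfbp6 was 3.17-fold higher in icaf.

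Retinoid genes differed in both directions. Retinoid signalling needs vitamin A uptake by STRA6, cytosolic binding proteins and retinaldehyde dehydrogenases, which make retinoic acid. Stra6 was read at 103, 31.0 and 67.1 CPM in m2cafpos against 1.88, 0.943 and 2.04 CPM in icaf, and the retinoic acid binding protein Crabp1 (chr9:54764748-54773110) at 438, 95.4 and 232 CPM against 14.9, 1.81 and 14.0 CPM. In both genes mouse 30 was lowest in each gate, and the gates still did not overlap. The dehydrogenases went both ways: Aldh1a3 was 15.6-fold higher in icaf (198, 155 and 148 against 14.4, 8.99 and 8.68 CPM), while Aldh1a2, named after its values were seen, was higher in m2cafpos at 40.5 ± 27.8 against 7.88 ± 4.51 CPM. Of 29 retinoid and lipid genes 10 were higher in icaf, or 6 without the mouse block and without mouse 27, and 8 in m2cafpos, or 5 without mouse 27.

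Axon guidance and adhesion molecules, which fibroblasts share with neurons, also differed. Guidance genes were higher in m2cafpos for 22 of 51 and in icaf for 8 (median -0.43), and the 8 became 5 with TMM scaling and without any one library of mouse 27 or 30. Sema3c, a secreted semaphorin, was 26.5-fold higher in icaf (411, 471 and 299 against 11.9, 21.9 and 10.7 CPM). Sema7a, a lipid-anchored semaphorin that binds integrins, was 37.6-fold higher in m2cafpos, where it was read at 32.7, 21.0 and 31.6 CPM. The netrin receptor Unc5c and the guidance cue Slit2 were 22.7-fold and 5.73-fold higher in m2cafpos. Of 29 immunoglobulin-type and cadherin adhesion genes, 6 were higher in each gate, against 18.0% (icaf) and 10.4% (m2cafpos) of all genes tested. The sort gene Ncam1 is among those higher in m2cafpos. Although NCAM itself marked m2cafpos, its relatives Cadm3 (112, 102 and 92.7 against 1.63, 3.04 and 1.41 CPM) and Nrcam (27.5, 29.6 and 26.0 against 0.415, 0.760 and 0 CPM) were higher in icaf. The cadherin Cdh11, given above, was among those higher in m2cafpos.

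The series title concerns senescent stroma, and cell cycle inhibitors were read with that in view. Cdkn2b, which encodes the CDK4 and CDK6 inhibitor p15INK4b (chr4:89306299-89311039), was read at 86.7, 78.0 and 83.3 CPM in m2cafpos and at 5.38, 3.24 and 11.3 CPM in icaf, a 12.5-fold difference (adjusted p = 1.04e-06). Cdkn2a, the locus of p16INK4a and p19ARF, was near the limit of detection in icaf, at 0.114, 0.118 and 0.317 CPM, and was read at 2.08, 1.95 and 1.91 CPM in m2cafpos (adjusted p = 0.000306). The counts do not separate its 2 products. Cdkn1a (p21) was 1.84-fold higher in m2cafpos, at 184, 176 and 193 CPM against 87.2, 103 and 110 CPM. The 3 inhibitors did not overlap between icaf and m2cafpos, as was the case for 43.0% of all genes tested. Means in m2cafneg were 59.9 CPM for Cdkn2b, 1.10 CPM for Cdkn2a and 135 CPM for Cdkn1a. In vcaf they were 5.92, 0.226 and 184 CPM, so that Cdkn1a was as high there as in m2cafpos. Of 27 genes linked to arrest and senescence, 11 were higher in m2cafpos and 4 in icaf (median -0.16), and the 11 became 7 without mouse 27. The 4, which were Lmnb1, Hmga1, Sesn1 and Ccnd1, became 1 with TMM scaling and 0 or 1 without any one library. The list also holds Igfbp3 and Igfbp4, which other lists share. Trp53 did not pass the test (157 ± 5.72 and 144 ± 11.5 CPM).

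Proliferation genes hardly differed by the test: of 30, 2 were higher in icaf and 1 in m2cafpos, and the 2 became 0 without the icaf library of mouse 27 or without the mouse block, 5 without the icaf library of mouse 31 and 1 without any one m2cafpos library. The 1, Rrm1, also lost its call without the icaf library of mouse 31. The 2 were the replication genes Mcm3 (32.5 ± 12.6 against 16.6 ± 3.75 CPM) and Mcm6 (28.0 ± 16.7 against 15.8 ± 4.84 CPM), and Mcm6 also lost its call with TMM scaling. The mitotic markers Mki67 (6.84 ± 3.52 and 5.47 ± 2.60 CPM) and Top2a (17.1 ± 9 and 12.7 ± 5.42 CPM) did not pass, with adjusted p of 0.553 and 0.239.

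Transcription factors of both states were found. Of 21 mesenchymal factors, 9 were higher in m2cafpos and 2 in icaf, and the 9 became 5 without the icaf library of mouse 27 and 3 without mouse 27. Foxs1, a forkhead factor of perivascular and activated mesenchyme, was 10.2-fold higher in m2cafpos (24.7, 18.9 and 18.2 against 2.22, 1.18 and 2.65 CPM), and Snai1 2.44-fold. Zeb1 was 1.69-fold higher in icaf, as was Prrx1 (log2 difference 0.75). Of 48 factors of fibroblast identity, 15 were higher in icaf and 4 in m2cafpos (Meox1, Nr2f1, Tbx2 and Tbx3). The oestrogen receptor Esr1 was read at 49.8, 47.9 and 45.8 CPM in icaf against 8.83, 17.9 and 10.2 CPM, and Ebf2, Osr2 and Klf4 were 3.59-fold, 3.49-fold and 2.81-fold higher there. None of the genes given with a fold overlapped between the gates, which was also so for 43.0% of all genes tested.

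Cartilage, bone and tendon genes were higher in m2cafpos for 12 of 22 and in icaf for 2, Sox5 and Comp (median -0.79), and 1 passed in icaf without either library of mouse 30 or the m2cafpos library of mouse 27. Runx1, a factor of blood and skeletal development, was read at 109, 91.3 and 130 CPM in m2cafpos against 14.9, 8.55 and 24.4 CPM in icaf. Runx2, the master factor of bone, named after its values were seen, was read at 20.6, 14.6 and 18.2 CPM against 2.77, 2.83 and 4.06 CPM. Enpp1, which makes pyrophosphate, and the cartilage matrix genes Matn2, Chad and Cilp were 4.65-fold, 3.24-fold, 16.5-fold and 3.96-fold higher in m2cafpos. Of 12 Notch genes, 4 were higher in m2cafpos (2 without mouse 27), with Notch3 and Hes1 among them, and 1, Notch2, in icaf, which also lost its call without mouse 27. The Notch effector Heyl was 14.8-fold higher in m2cafpos (331, 305 and 443 against 18.9, 11.7 and 42.2 CPM), and the receptor Notch1 2.99-fold. Mean Heyl was 281 CPM in m2cafneg and 338 CPM in vcaf, against 359 CPM in m2cafpos. Mean Notch1 was higher in m2cafneg (42.8 CPM) and vcaf (83.1 CPM) than in m2cafpos (29.0 CPM), and mean Notch3 was 778 CPM in vcaf.

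Several of the largest differences lay outside these programmes. Tubb4a, a tubulin best known from brain, was 92.3-fold higher in icaf (140, 141 and 94.9 against 1.25, 1.76 and 1.07 CPM), and Smpd3, a neutral sphingomyelinase, 135-fold (52.8 ± 5.46 against 0.391 ± 0.269 CPM). Car8, Mustn1 and Pcsk6, a carbonic anhydrase relative, a musculoskeletal protein and a proprotein convertase, were 48.2-fold, 37.9-fold and 30.3-fold higher in icaf. The mean of Mustn1 was higher in vcaf (128 CPM) than in icaf (67.4 CPM). Dmkn, a gene best known from skin epithelium, was 34.3-fold higher but uneven, at 217, 232 and 65.2 CPM, and its log2 difference of 4.86 ranged from 4.02 without mouse 30 to 5.93 without mouse 31, with 5.67 without the icaf library of mouse 31 and 4.24 without the m2cafpos library of mouse 30. The most abundant of these genes was gelsolin (Gsn), which severs actin filaments, at 21062, 24972 and 25255 CPM in icaf against 2454, 2999 and 1955 CPM. In m2cafpos, the prokineticin receptor Prokr2 was 39.2-fold higher (66.2, 54.9 and 64.4 against 1.23, 0.747 and 2.75 CPM), and Kif26b, Megf6 and Mamdc2 were 32.7-fold, 24.9-fold and 21.8-fold higher. The unconventional myosin Myo7a was 18.2-fold higher, and its log2 difference of -4.13 became -3.48 without mouse 30.

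Of hypoxia and glycolysis genes, 8 of 28 were higher in icaf and 1, Pkm, in m2cafpos (median 0.26), against 18.0% and 10.4% of all genes tested. Pkm lost its call without the icaf library of mouse 30. The vasodilator peptide adrenomedullin (Adm) was 12.2-fold higher in icaf (652, 761 and 939 against 46.3, 93.5 and 52.4 CPM), Ndrg1 3.22-fold, and the glycolytic enzyme Pfkp 2.69-fold. Genes induced by tissue dissociation differed too: 8 of 22 were higher in icaf and 2, Egr2 and Egr3, in m2cafpos. The 8 became 5 with TMM scaling or without the icaf library of mouse 27, 5 without mouse 31, and 4 without mouse 27, and the 2 became 1 without mouse 27 or mouse 31. Atf3 was 2.46-fold and Socs3 1.52-fold higher in icaf and Egr2 3.60-fold higher in m2cafpos (447, 493 and 467 against 115, 118 and 157 CPM), while Fos reached 2486 ± 267 and 2006 ± 202 CPM and did not pass. The part of dissociation in the cytokine and chemokine differences was not tested. None of 10 mitochondrial transcripts passed the limma test in either direction, and TMM scaling gave 1 and DESeq2 3 higher in m2cafpos.

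Markers of other cell types were compared as summed CPM with exact two-sided permutation tests of 3 against 3 libraries, for which the smallest possible p is 0.10, and 13 lists were tested. Epithelial markers, led by the milk genes Trf and Csn3, summed to 3027, 2991 and 7991 CPM in icaf and to 4531, 2243 and 7664 CPM in m2cafpos (exact p = 1), against means of 22175 in m2cafneg and 29494 in vcaf. Trf alone gave 2672 of the mean sum of 4670 CPM in icaf and 2879 of 4813 CPM in m2cafpos. It shares 63.5% of its exon length with another gene, so its count is uncertain. The epithelial sum of mouse 31 was highest in both gates. Without mouse 31, 3126 genes passed the test, while a fit with the epithelial sum as a covariate gave 4469. Of 24 epithelial markers 2 passed the test, the keratins Krt5 (5.79 ± 3.12 against 2.01 ± 1.49 CPM) and Krt7 (20.2 ± 10.1 against 11.6 ± 7.14 CPM), both higher in m2cafpos, and none was at 0 in all 6 libraries. Neither passed without the mouse block, without the icaf library of mouse 30 or without the m2cafpos library of mouse 27 or 31, and 6 passed without mouse 30. Macrophage markers summed to 117 to 256 CPM in icaf and 221 to 313 CPM in m2cafpos (exact p = 0.3) and endothelial markers to 307 to 489 and 225 to 333 CPM (exact p = 0.2). Neutrophil markers summed to 107 to 304 and 114 to 498 CPM (exact p = 0.5), and lymphocyte markers to 3.97 to 6.69 and 6.04 to 8.83 CPM (exact p = 0.2), with 2 of 7 tested lymphocyte members, Trac and Trbc2, higher in m2cafpos (1 without the icaf library of mouse 27). The perineurial, mesothelial and erythroid sums overlapped between the gates (exact p = 0.5, 0.8 and 0.9).

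**Figure D5:**
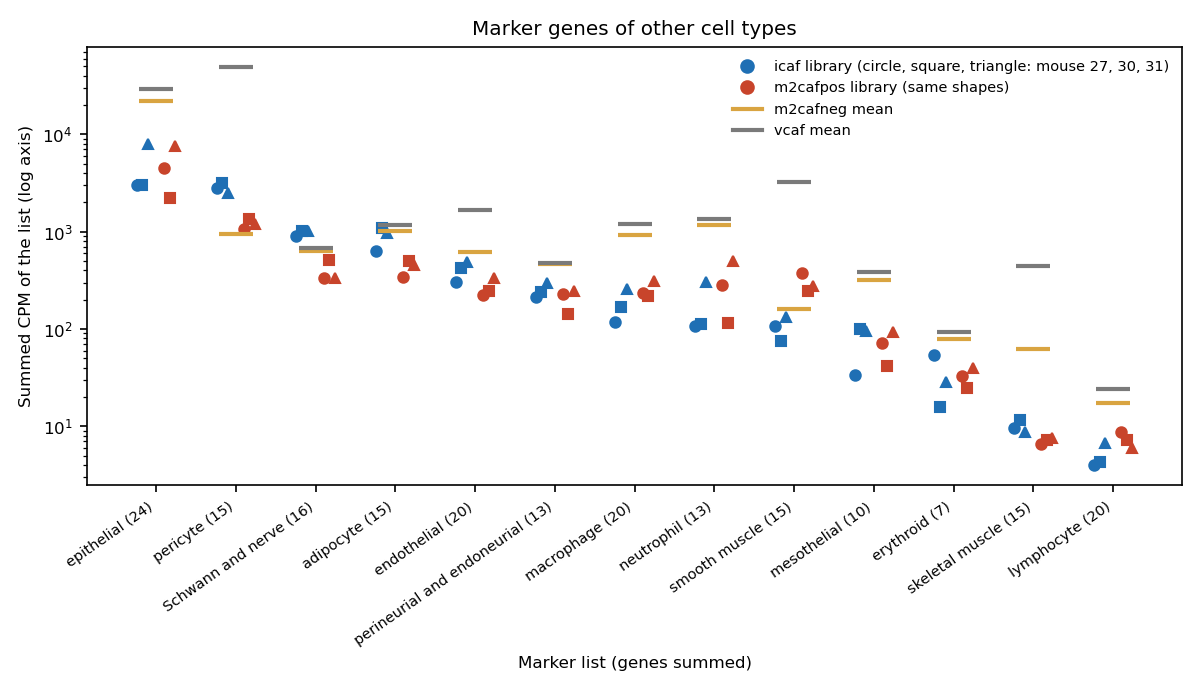
Summed CPM of marker genes of 13 other cell types (log axis, number of genes in brackets) in each icaf (blue) and m2cafpos (red) library, with circles, squares and triangles for mice 27, 30 and 31 and lines for the means of the other 2 gates. Epithelial sums overlap between icaf and m2cafpos and lie below both other gates. Pericyte, Schwann and adipocyte sums are higher in icaf and the smooth muscle sum is higher in m2cafpos.

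The sums of 5 lists did not overlap between the gates, and all reached the smallest possible p, which was 0.26 after Benjamini-Hochberg adjustment over the 13 lists. Pericyte markers summed to 2505 to 3149 CPM in icaf and 1066 to 1354 CPM in m2cafpos, against 49422 in vcaf, and most of the icaf sum came from Cd248 (2050 ± 424 and 601 ± 65.4 CPM), which fibroblasts express as well. Of 15 members 4 were higher in icaf and 4 in m2cafpos. The potassium channel subunits Kcnj8 and Abcc9 were read at 107 ± 34.0 and 44.2 ± 14.2 CPM in icaf against 19.0 ± 6.44 and 6.79 ± 3.57 CPM in m2cafpos. The proteoglycan NG2 (Cspg4) was higher in m2cafpos at 68.0 ± 6.03 against 6.38 ± 1.65 CPM, with Notch3, Ndufa4l2 and Rgs4. Means in vcaf were 948, 704 and 279 CPM for Kcnj8, Abcc9 and Cspg4. Vtn was the fourth member higher in icaf. Schwann and nerve markers summed to 900 to 1013 and 331 to 517 CPM, led by Pmp22 (737 ± 61.5 and 238 ± 81.5 CPM), a gene that fibroblasts also express. Adipocyte markers summed to 629 to 1098 and 343 to 504 CPM, led by lipoprotein lipase (Lpl). Skeletal muscle markers summed to 8.79 to 11.7 and 6.61 to 7.63 CPM. Smooth muscle markers summed to 74.6 to 133 and 244 to 378 CPM, of which Acta2, described above, made up most in m2cafpos. The part of these cells in the results was not tested. Within the endothelial list, Tek was the 1 of 20 members higher in icaf, and 3 were higher in m2cafpos, namely Ptprb (15.2 ± 3.06 against 3.28 ± 2.88 CPM), Vwf (4.25 ± 1.57 against 0.995 ± 0.164 CPM) and Erg (2.12 ± 1.11 against 0.316 ± 0.363 CPM). Tek, the angiopoietin receptor TIE2, was read at 126, 211 and 159 CPM in icaf against 8.74, 16.3 and 13.4 CPM, and made up 165 of the mean endothelial sum of 407 CPM in icaf and 12.8 of 268 CPM in m2cafpos, while Pecam1 (CD31) was read at 8.99 ± 9.20 and 7.77 ± 4.81 CPM and did not pass. Tek and its ligand gene Angpt2 thus differed in opposite directions between these 2 gates, although the mean of Angpt2 was highest in vcaf (245 CPM). Within the macrophage list Csf1r, the receptor of macrophage growth factors, was 2.22-fold higher in m2cafpos, while Cd14 did not pass.

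The NCAM-negative gate, sorted beside m2cafpos, lay mostly between the 2 gates. Its mean CPM fell between those of icaf and m2cafpos for 1885 (67.9%) of the genes higher in icaf and 920 (57.2%) of those higher in m2cafpos. For 608 of the genes higher in m2cafpos, the NCAM-negative gate was higher still. Bmp4 was one of the 528 genes higher in icaf whose NCAM-negative level exceeded both, at 29.5 CPM. The epithelial marker sum of the NCAM-negative gate was above that of both gates, and its part in these positions was not tested.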

How the data were processed

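RNA-seq of sorted mouse CAFs was analysed from a table of CPM deposited by the authors, in which reads were divided by the total assigned to genes with no further scaling between libraries (each column sums to 1000000 over 55487 genes after 287 repeated lines were dropped). Per the submitters' processing notes, bcl2fastq, DRAGEN and the mm10 build were used, with no versions. Which tool counted reads, whether by strand, how reads fitting several genes were placed, and with which annotation, is not given in the sources used here, so overlapping genes and close copies are less certain. The title 27_vacf was taken for the vcaf gate of mouse 27. All values were whole multiples of 1 read within 0.01 reads (100% of values), so reads could be recovered for edgeR and DESeq2.

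The 15456 genes reaching 1 CPM in 3 or more of the 12 libraries entered a linear model of log2(CPM + 1) (limma 3.58.1 under R 4.3.3, 4 gates plus mouse, eBayes with trend, two-sided, 6 residual and 5.81 prior degrees of freedom) and adjusted by Benjamini and Hochberg over all of them, with a threshold of 0.05. Adding 1 CPM understates changes of low genes. Folds are ratios of mean CPM, errors of levels are SD over 3 mice, and SE is that of the log2 difference. The mouse numbers name animals, and the pairing was checked across genes. Deviations from the gate means correlated at r = 0.274, 0.298 and 0.448 between icaf and m2cafpos of one mouse, and at -0.283 to 0.00477 between different mice, so mouse was kept as a block.

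Gene lists (41, besides 13 of other cell types) and members were chosen with earlier results of these data known, and they are described by counts and medians without a test. Of 1225 list symbols, 2 matched no gene and 160 fell below the filter. Named were the sort genes and a few fixed genes, the 15 largest differences in each direction (at least 10 CPM in the higher gate, no overlap), up to 4 members per list or role by adjusted p (at least 5 CPM), the 10 most abundant genes per gate, and the 2 most abundant markers per other cell type. Others are said to have been named after their values were seen, or did not pass and are given as levels. Alternatives were the block, the libraries fitted, the pseudocount, the filter, the scaling, edgeR 4.0.16 and DESeq2 1.42.0 on recovered reads, an epithelial covariate and left-out libraries and mice. The fit was tested on simulated data. Positions are those of GENCODE M21 (GRCm38), where 99.4% of the identifiers were found. A few items are not reported here.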

Additional observations from a re-analysis of the deposited data

How the results depend on the processing

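No gene called in the comparison of the gates passed the test in the opposite direction under any of the 21 alternatives run. The number of genes that differed (4387) stayed within 1.5 times its value except without mouse 27 (2285, with 956 higher in m2cafpos and 1329 in icaf). The number higher in icaf (2778) became 1820 with median-of-ratios scaling and 1747 with edgeR on recovered reads, where fewer small differences lie on the icaf side. Leaving out 1 of the 6 libraries at a time gave 3010 to 3723 genes, with 1822 to 2296 higher in icaf and 1188 to 1427 higher in m2cafpos. Without the replicate block by mouse, 3692 genes passed (2322 and 1370). With only the 6 libraries of both gates, 4584 passed with the block and 3986 without it. Of the 237 named genes, 219 kept their side of the threshold without mouse 27, the fewest of any alternative, and 226 to 236 did under the others fitted to all of them. The cause of these losses was not tested. At 0.0181 to 0.0228 CPM per read, genes under 1 CPM, such as Cdkn2a in icaf, rest on few reads.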

Other observations

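Genes of lipid handling and detoxification in the icaf gate have not been described above. The glutathione transferase Gstm1 was read at 1003, 1330 and 1122 CPM in icaf and at 80.5, 218 and 81.6 CPM in m2cafpos, and apolipoprotein E (Apoe) at 588, 668 and 1277 CPM against 200, 336 and 223 CPM. Neither gene overlapped between the gates. Il1rl1, the receptor of interleukin 33, reached 20.4 ± 9.28 CPM in icaf and 4.17 ± 1.99 CPM in m2cafpos (SD, n = 3). Klf15, a transcription factor of metabolism, reached 7.33 ± 4.20 and 0.876 ± 0.817 CPM. In m2cafpos, the tendon factor Mkx was read at 4.53, 3.30 and 5.24 CPM, against 0.634 CPM or less in each icaf library. The collagen receptor subunit Itga1 was 8.01-fold higher there (40.3, 17.9 and 41.9 against 4.14, 3.03 and 5.33 CPM). These genes were picked after their values were seen, among members of the lists that passed the test. Of the most abundant genes of both gates, beta-actin (Actb) was read at 11178 ± 1341 CPM in icaf and 9564 ± 669 CPM in m2cafpos and did not pass, while Sparc, which binds collagen, was 1.86-fold higher in m2cafpos (25999 ± 2260 against 13960 ± 538 CPM) and lost its call without mouse 27.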
